A study of Homo sapiens with 26 samples.

Results

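SART1 was knocked down in 786-O cells and compared with cells given a non-targeting siRNA, in 6 of the 26 libraries of the series. The members are all libraries of the SART1 table, namely 2 control libraries, 2 with SART1 siRNA 4 and 2 with SART1 siRNA 6, and all 11823 genes of that table passed the minimum mean of 10. The line 786-O comes from a human clear cell renal carcinoma, is a single line without a working VHL gene and therefore keeps HIF-2 active, so every value below describes that one background. All cells, controls included, were transfected with DharmaFECT 1, moved to fresh medium at 24 h and collected at 48 h, and their poly(A) RNA was read as paired ends of 42 bases. Separate transfections for the libraries of a group are not stated in the labels, and the p-values therefore measure a spread between libraries that may be technical.

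SART1 is a protein of the U4/U6.U5 tri-snRNP, the particle that brings the U4, U6 and U5 small nuclear RNAs to an intron already marked by U1 and U2. Once the tri-snRNP has docked, the helicases of the spliceosome unwind U4 from U6, and the activated complex cuts and joins the exons. Many splicing factors, SART1 among them, are stored in nuclear speckles, bodies in the nucleus that hold SR proteins and the large scaffold proteins SON and SRRM2. The comparison asks which mRNAs are higher or lower at 48 h when SART1 is low.

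The deposited values, called values below, are reads per gene divided by a size factor for each library. They are relative to the other genes of the same library, so fewer cells and less RNA per cell cannot be told apart. A log2 change is the difference of log2(value + 1) between an siRNA and the controls. Its standard error (SE) is limma's, in which the spread between libraries of a group is drawn toward a trend over all genes. "Rose" and "fell" are kept for genes that passed with each siRNA in the same direction, at a Benjamini-Hochberg adjusted p below 0.05 in limma's two-sided test. Both siRNAs were set against the same 2 control libraries, so their changes share the error of the controls. Gene reads per library ran from 21710821 to 26128173, and libraries of a group differed by more than counting error, with a chi-square per degree of freedom of 1.93 to 2.93.

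SART1 itself had values of 3224 and 3424 in the control libraries, 1122 and 1091 with siRNA 4, and 888 and 891 with siRNA 6. All 4 knockdown libraries lay below both controls, at 33.3% and 26.8% of the control mean. The log2 change was -1.59 with siRNA 4 and -1.90 with siRNA 6 (SE 0.05; limma adjusted p = 3.9e-17 and 3.4e-19). In the other 4 knockdowns of the series SART1 mRNA stood at log2 changes of -0.06 to -0.01 and was not called.

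Markers of the line were present in every group. All 12 renal carcinoma markers were among the tested genes, among them the intermediate filament gene VIM and the keratins KRT8 and KRT18. PAX8, the kidney transcription factor that marks this tumor type, had a control mean of 3025 and log2 changes of -0.21 and -0.15, a call lost without siRNA 6 replicate 2, in the fit without a trend, and with GC content removed from each library. Of these 12 markers 3 rose and 4 fell, 25% and 33.3%, where 22.9% of all tested genes rose and 20% fell. Of the markers of other cell types, 1 of 6 for leukocytes (CD68), 0 of 5 for endothelium, 3 of 6 for fibroblasts and smooth muscle and 2 of 5 for hepatocytes and neurons were tested, and none of them was called with both siRNAs. CD68 was at -0.02 with siRNA 4 and -0.63 with siRNA 6 (SE 0.09).

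With both siRNAs 2709 genes rose, 22.9% of those tested, and 2362 fell, 20%, which together is 42.9% of all tested genes. The mean of both siRNAs called 3860 genes higher (32.6%) and 3782 lower (32.0%). siRNA 4 alone called 29.5% of genes higher and 28.2% lower, and siRNA 6 alone 32.5% and 30.5%. All 4 knockdown libraries lay above both controls in 30.2% of genes and below them in 30.1%. The median size of change among genes called with both siRNAs was 0.37 on the log2 scale. Only 18 of the genes that rose and 61 of those that fell changed by over 2-fold with each siRNA. The share of calls that were upward depended on the scaling, at 53.4% as deposited and 40.5% after upper quartile scaling, which gave 2076 up and 3048 down. Every count of list members below is to be read against the 22.9% and 20% of all genes.

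**Figure D1:**
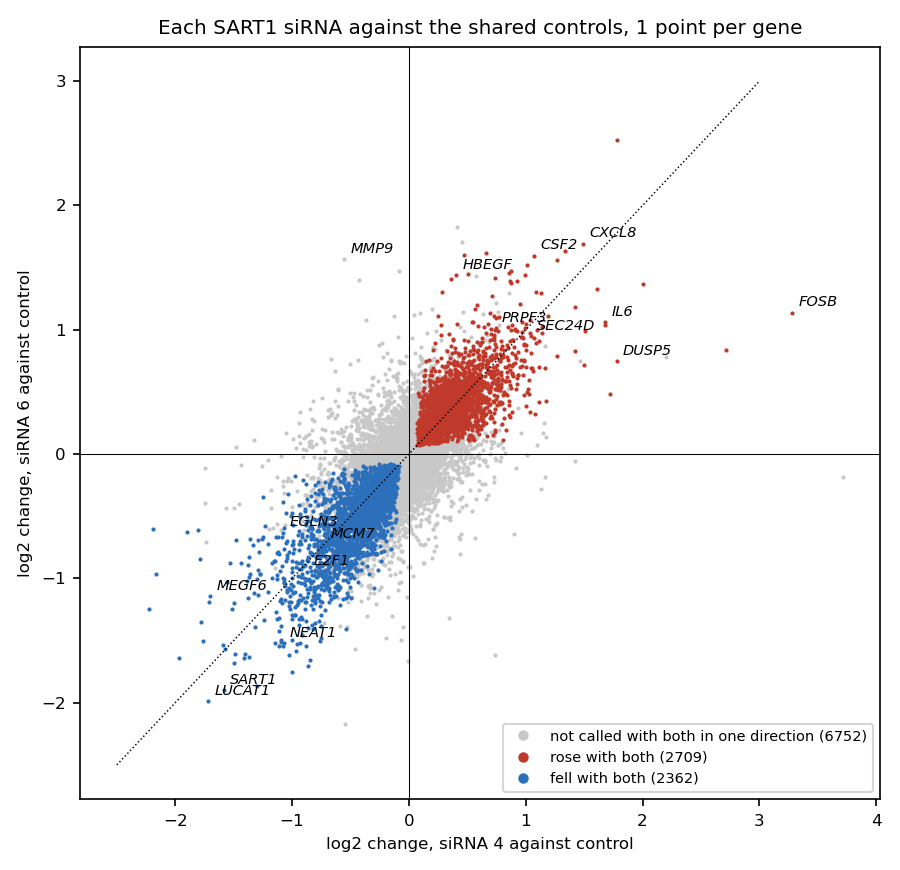
Log2 change with siRNA 4 (x axis) and siRNA 6 (y axis) against the shared controls, 1 point per tested gene, red for the 2709 genes that rose with both siRNAs, blue for the 2362 that fell and grey for the rest. Both siRNAs share the 2 control libraries, and the dotted line marks equal change.

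The 20 largest rises, ranked by the smaller change of both siRNAs, included the secreted inflammatory proteins CXCL8, CSF2, IL6, CCL2 and CXCL5. CXCL8, a chemokine that attracts neutrophils, had values of 474 and 498 in control cells, 1252 and 1502 with siRNA 4 and 1537 and 1612 with siRNA 6. CCL2, which attracts monocytes, stood at 171 and 162 in control cells, 285 and 386 with siRNA 4 and 443 and 461 with siRNA 6. For CXCL5, a further neutrophil chemokine, the controls were at 2928 and 3009 and the knockdown libraries between 5528 and 7002. In each of these genes the lowest knockdown library lay above the highest control, which was a condition for the 20 largest. TRAF1, an adaptor of TNF receptors, went from 624 and 641 to values of 1180 to 1387, a log2 change of 0.99 and 1.02 (SE 0.07).

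The other large rises covered genes of several functions. ACBD3, a Golgi protein that recruits lipid kinases, stood at 1897 and 1917 in control cells, 4163 and 4220 with siRNA 4 and 3790 and 3690 with siRNA 6. SEC24A, a subunit of the COPII vesicle coat that binds cargo, went from 1721 and 1702 to 3127 and 3573 with siRNA 4 and 3308 and 3467 with siRNA 6. SAT1, the enzyme that acetylates polyamines for their breakdown, rose from 956 and 936 to values of 1843 to 2033. SMNDC1, a splicing factor with a Tudor domain that binds methylated Sm proteins, had 1466 and 1546 in control cells and 2837 to 3030 in the 4 knockdown libraries. Its log2 changes of 0.96 and 0.94 (SE 0.04) were larger than those of any other spliceosome gene that was listed, apart from the 1.01 of PRPF3 with siRNA 6. FOXA1, a pioneer transcription factor, was low in control cells (31.5 and 43.9) and stood at 64.9 to 92.0 after knockdown. TIMM23B, which is nearly identical to TIMM23 and may share its reads, had log2 changes of 1.07 and 0.94 (SE 0.15).

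PAPPA, a protease that frees insulin-like growth factors, was below the minimum mean of 50 set for these 20 genes and is named after its values were seen. It was listed at 8.87 and 8.77 in control cells, 38.5 and 27.7 with siRNA 4 and 54.6 and 56.4 with siRNA 6, a log2 change of 1.78 and 2.52 (SE 0.29). It was the only tested gene above 1.5 with siRNA 4 and above 2 with siRNA 6.

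The 20 largest falls included noncoding RNAs, chromatin factors and enzymes. LUCAT1, a long noncoding RNA, had 138 and 138 in control cells, 33.8 and 50.4 with siRNA 4 and 32.6 and 35.7 with siRNA 6. NEAT1, the RNA scaffold of paraspeckles and an RNA of 1 exon, stood at 2747 and 2802, 1310 and 1327, and 958 and 979 in the same order. In both RNAs all knockdown values were below the controls, again a condition of the choice. NEAT1 was lower with siRNA 6 than with siRNA 4.

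Among protein-coding genes ARPIN, an inhibitor of the Arp2/3 complex that branches actin, went from 139 and 131 to values of 38.0 to 51.7 (log2 -1.41 and -1.64, SE 0.18). CBX7, a Polycomb subunit that reads methylated histone H3, went from 214 and 246 to 132 and 95.9 with siRNA 4 and 90.1 and 61.0 with siRNA 6. PIGV, a mannosyltransferase of GPI anchor synthesis, stood at 205 and 217 in control cells and at 59.4 to 108 after knockdown. H6PD, which makes NADPH inside the endoplasmic reticulum, went from 276 and 263 to values of 111 to 132. MED11, a Mediator subunit, fell from 124 and 124 to 50.7 to 67.7, and PAQR4, a membrane protein, from 1047 and 1113 to 474 to 520. CRTC1, a coactivator of CREB, had log2 changes of -1.08 and -1.20 (SE 0.20). The remaining falls covered CCDC136, CLTCL1, DHRS11, HEXDC, MAMDC4, MEGF6, PHF7, RTL3, RTL10, SAMD11 and TRIM45, with mean log2 changes between -1.42 and -1.07.

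**Figure D2:**
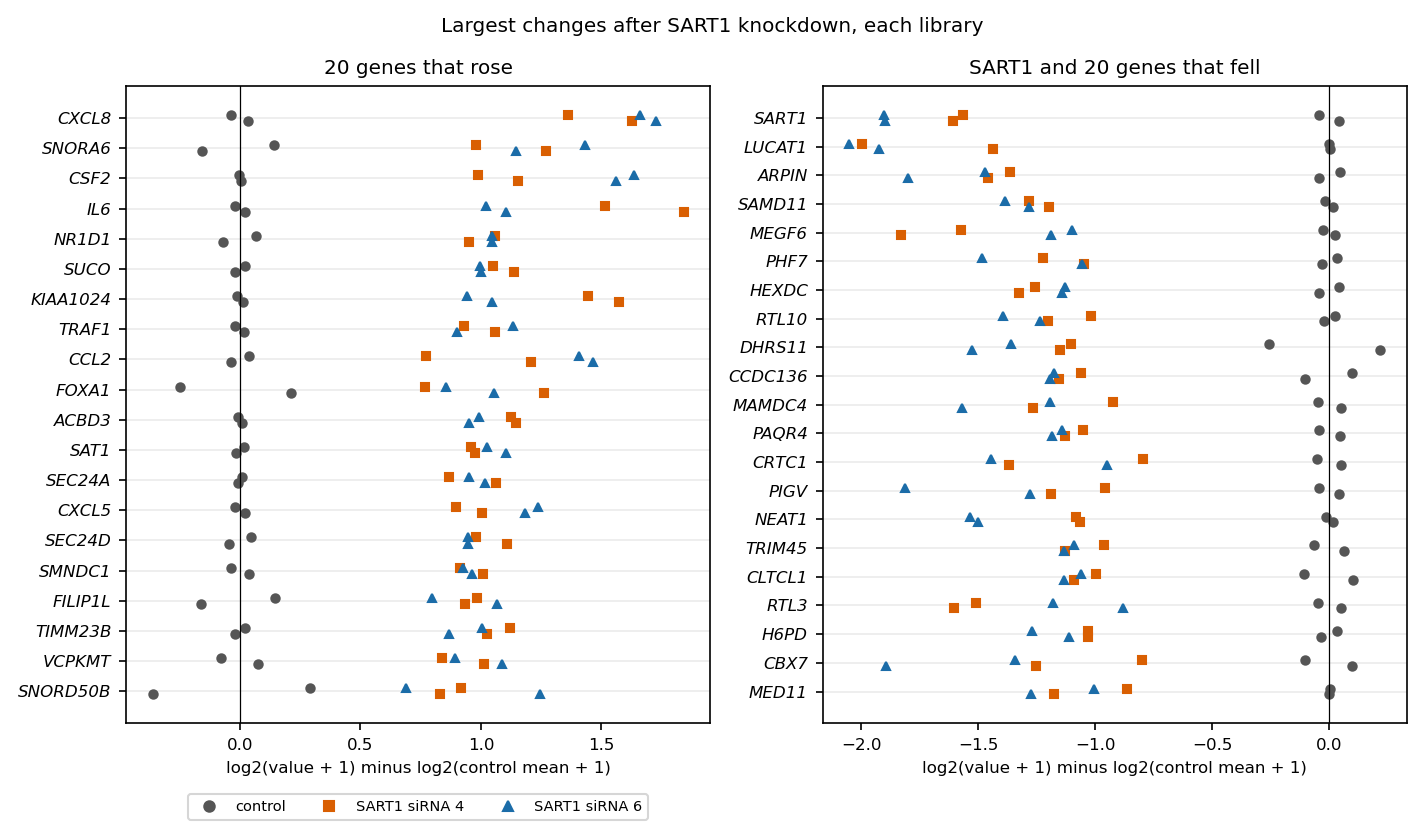
Each library's log2(value + 1) minus that of the control mean, for the 20 genes with the largest rise (left) and for SART1 and the 20 genes with the largest fall (right); grey circles are control, orange squares siRNA 4 and blue triangles siRNA 6 libraries. In each gene the 4 knockdown libraries lie beyond both controls; that and the calls were conditions of the choice.

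The proteins that work beside SART1 were mostly encoded by mRNAs that rose. Of 7 tested genes for U4/U6 and tri-snRNP proteins other than SART1, 6 rose and 0 fell, with a median log2 change of 0.50 against -0.01 over all genes. PRPF3, which holds the U4/U6 helix, had values of 2822 and 2718 in control cells, 4641 and 4635 with siRNA 4 and 5642 and 5522 with siRNA 6. PRPF4, its partner on the same helix, went from 3490 and 3528 to values of 5153 to 5232. SNRNP27, a tri-snRNP protein with an RS domain, stood at 807 and 748 in control cells and at 1174 to 1400 after knockdown. USP39, a ubiquitin-protease-like factor that helps keep the tri-snRNP together, rose by 0.27 and 0.38 (SE 0.04). PRPF31, which binds U4, was the gene that did not pass, at -0.03 and -0.05 (SE 0.04).

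U5 and Sm genes rose by less. Of 8 genes for U5 proteins 6 rose and 0 fell, with a median of 0.20. DDX23, the helicase that helps the tri-snRNP join, rose by 0.39 and 0.45 (SE 0.04), PRPF6, a bridge between U5 and U4/U6, by 0.32 and 0.41, and PRPF8, the core of the active site, by 0.22 and 0.24. Of 13 Sm and LSm genes, whose proteins form rings on small nuclear RNAs, 10 rose and 0 fell with a median of 0.20, among them SNRPE at 0.37 and 0.41 (SE 0.04). After quantile normalization only 3 U5 and 5 Sm and LSm genes rose. The assembly and recycling list, which includes the SMN complex, had 7 of 18 up and 1 down (GEMIN6), with DDX20, an SMN partner, at 0.35 and 0.51 and SART3, the factor that rebuilds U4/U6 after splicing, at 0.27 and 0.34 (SE 0.05 and 0.04).

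Genes of other spliceosome stages moved the same way. For U2 and branch site factors 14 of 22 rose and 0 fell, with a median of 0.28. SF3B1, which clamps the branch site, went from 10284 and 10281 to 14539 and 14953 with siRNA 4 and 15416 and 15902 with siRNA 6. For U1 and 5 prime splice site factors 7 of 11 rose and 0 fell, but 4 did so after quantile normalization, after upper quartile scaling or in the fit without a trend. B complex proteins had 5 of 8 up and 1 down (WBP4), with PRPF4B, a kinase of tri-snRNP proteins, at 0.61 and 0.58 (SE 0.04). In the PRP19 and catalytic-stage list 19 of 27 rose and 0 fell, with a median of 0.28, led by SYF2 at 0.55 and 0.54 and CDC40, a factor of the later splicing step, at 0.61 and 0.49 (SE 0.05 and 0.06). The minor spliceosome, which removes a rare class of introns with U11, U12, U4atac and U6atac, stood nearer the background, with 3 of 12 up and 1 down and a median of 0.02. Its members RBM48 and SNRNP48 rose by 0.61 and 0.67 and by 0.35 and 0.55 (SE 0.08 and 0.07), while CCDC84 fell by 0.37 and by 0.41 (SE 0.11).

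SR proteins, which bind exonic enhancers and fill nuclear speckles, had 19 of 21 genes up and 0 down with a median of 0.27; after quantile normalization 11 rose. SON, a scaffold of speckles, had values of 9432 and 9096 in control cells, 12505 and 12330 with siRNA 4 and 14231 and 14135 with siRNA 6. BCLAF1, an RS-rich factor, went from 6517 and 6360 to values of 9185 to 9271. The classical members SRSF3 and SRSF7 rose by 0.35 and 0.41 and by 0.29 and 0.43 (SE 0.03). SRRM2 did not pass with siRNA 4 (0.03, SE 0.03) and was at 0.22 with siRNA 6. Of the kinases that phosphorylate SR proteins 4 of 10 rose and 1 fell, with DYRK1A at 0.40 and 0.63 (SE 0.06) and SRPK1 at -0.11 and -0.47 (SE 0.05), the latter lost without either siRNA 4 library or without control replicate 1.

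**Figure D3:**
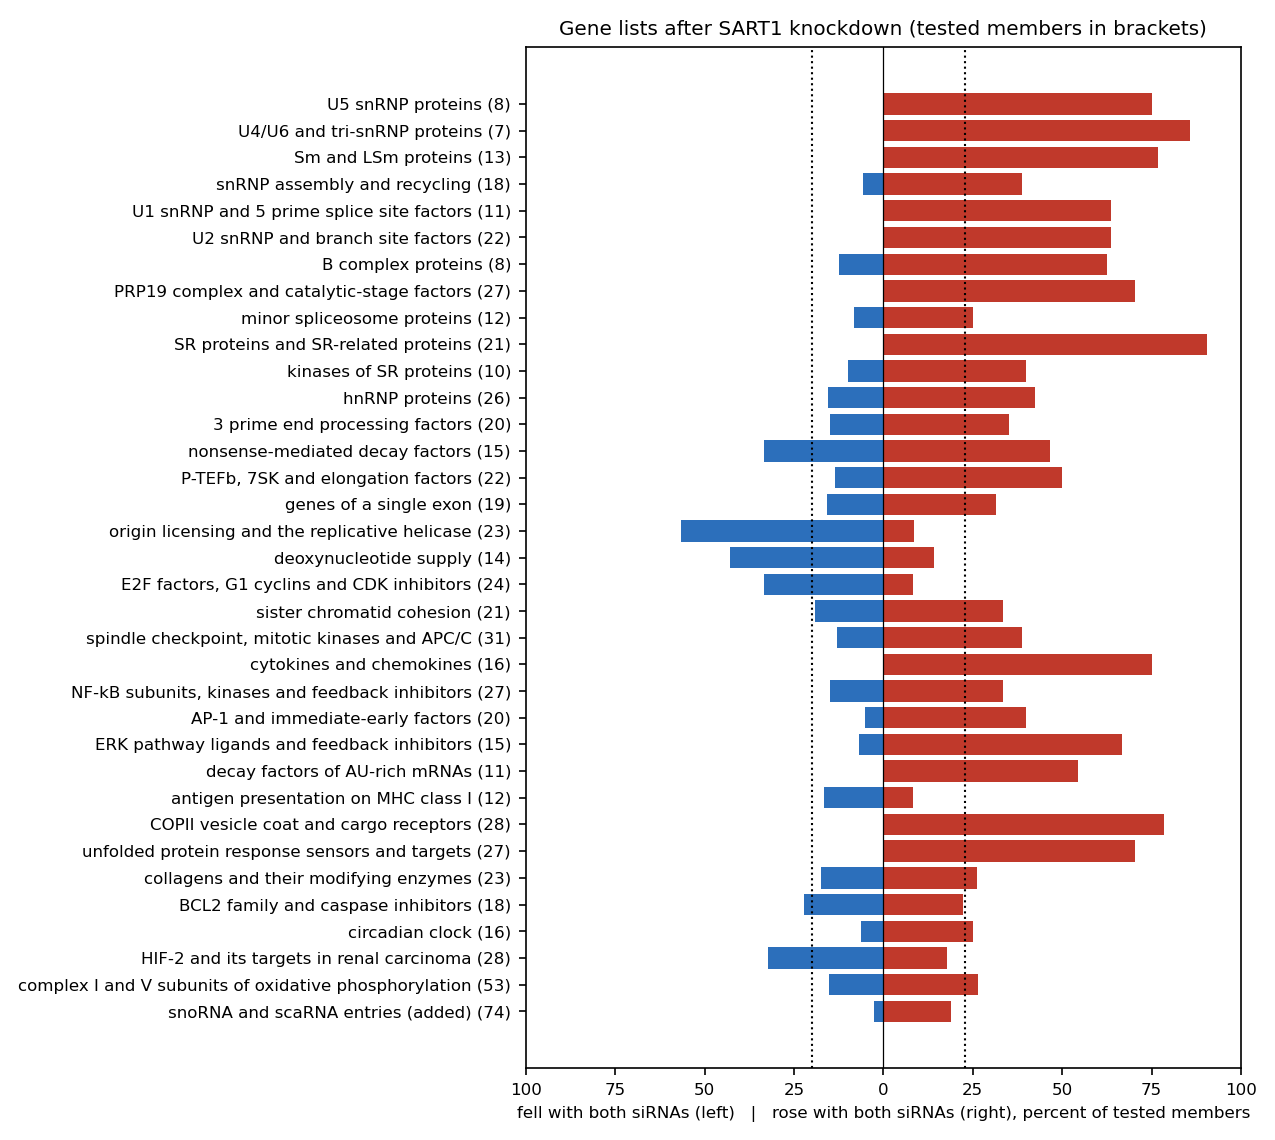
Percent of tested members of each gene list that rose (red, right) or fell (blue, left) with both siRNAs, with the number tested in brackets and dotted lines at 22.9% and 20%, the shares of all tested genes. SR proteins (19 of 21 up) and origin licensing (13 of 23 down) mark the ends of the range; no list was tested as a set.

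Beside these counts stand general features of the table that move with a call. Genes with more reads were called upward more often, so that, with protein-coding genes in 5 equal bins by control mean, 41.0% of the highest bin rose and 13.9% fell, against 6.53% and 18.0% of the lowest. Median transcript GC of the lists named above lay between 40.5% and 52.7%, against 48.1% for all genes. After the GC trend was taken out of each library 19 SR, 21 PRP19 and catalytic-stage, 15 U2 and 6 tri-snRNP genes rose. The part of read level in these counts was not tested.

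Proteins that bind pre-mRNA outside the spliceosome and those that finish or check the mRNA gave mixed lists. Of 26 hnRNP genes 11 rose and 4 fell, and the rises dropped to 6 after quantile normalization or upper quartile scaling and to 5 in the fit without a trend. PTBP2, the neuronal form of the polypyrimidine tract protein, had 302 and 284 in control cells, 411 and 423 with siRNA 4 and 539 and 565 with siRNA 6, while PTBP1 fell by 0.21 and by 0.15 (SE 0.03). HNRNPH1, which binds G-rich sites, went from 15075 and 14996 to values of 12340 to 13057. The 3 prime end list had 7 of 20 up and 3 down, with CSTF1, a cleavage stimulation factor, at 0.50 and 0.56 and SYMPK, its scaffold, at -0.39 and -0.44 (SE 0.05).

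Nonsense-mediated decay removes mRNAs with early stop codons. Of its 15 genes 7 rose and 5 fell. MAGOH, MAGOHB, RBM8A and EIF4A3, the core of the exon junction complex, were among those that rose (MAGOHB 0.44 and 0.56, SE 0.04). The genes that fell were UPF2, UPF3A, SMG5, SMG6 and SMG9, with SMG9 at -0.37 and -0.56 and SMG6, the endonuclease, at -0.27 and -0.54 (SE 0.06 and 0.07).

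P-TEFb and its partners release RNA polymerase II from pausing near the promoter. Of 22 such genes 11 rose and 3 fell, with a median of 0.15. ELL2, an elongation factor, had values of 984 and 961 in control cells, 1793 and 1792 with siRNA 4 and 1512 and 1552 with siRNA 6. The kinase subunit CDK9 did not pass, at -0.10 and -0.01 (SE 0.05).

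Small nucleolar RNAs guide the chemical modification of ribosomal RNA, and many lie in introns of host genes, from which they are cut after splicing. Their entries, added as a list after values were seen, had 14 of 74 up and 2 down, and the upward share of 18.9% was below that of all genes. The median log2 change of 0.33 was above the -0.01 of all genes. SNORA6 had 37.5 and 30.2 in control cells, 67.7 and 83.1 with siRNA 4 and 93.0 and 76.0 with siRNA 6, and SNORA63 had 28.6 and 15.6, 46.1 and 59.3, and 53.7 and 77.1. Both lay above the controls in every knockdown library, as did 30.2% of all tested genes. For SNORA6 that was a condition of its choice among the largest rises. SNORA61 fell from 260 and 294 to values of 169 to 216. The 21 host genes had 5 up and 4 down with a median of -0.03. At these low levels the count of 14 fell to 7 among entries with a mean of at least 50, fell to 9 without siRNA 4 replicate 1, and was 23 after quantile normalization. Reads of unspliced host transcripts cannot be told apart from those of the small RNA here.

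Cytokines and chemokines are secreted signals that call in and activate immune cells, and in epithelial tumor cells the transcription factor NF-kB drives many of them. Of 16 tested genes 12 rose and 0 fell, with a median log2 change of 0.97. The promoters of the genes that rose are shown to let the reader see the letters they share. The 250 bases before the gene start were searched for the NF-kB motif GGANNTTCC on either strand. It was found in 8 of 11 list members with a promoter sequence (CXCL1, CXCL2, CXCL3, CXCL5, CXCL8, IL6, IL32 and CSF2). All 8 rose, but so did 10 of the 11, so the calls do not set members with the motif apart. Of the promoters of 9145 tested genes 3.93% held it. The windows below are from RefSeq, build GRCh38.p14, written 5′ to 3′ on the gene's strand with the match in capitals.
CXCL8, chr4:73740448-73740516, plus strand: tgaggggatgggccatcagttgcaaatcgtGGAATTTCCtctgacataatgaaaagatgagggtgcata
CXCL1, chr4:73869285-73869353, plus strand: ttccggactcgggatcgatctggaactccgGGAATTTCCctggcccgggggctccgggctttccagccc
CXCL2, chr4:74099234-74099302, minus strand: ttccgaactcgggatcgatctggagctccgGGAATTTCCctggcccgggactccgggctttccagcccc
CXCL5, chr4:73998729-73998797, minus strand: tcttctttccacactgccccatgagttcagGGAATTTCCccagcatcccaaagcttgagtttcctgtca
IL6, chr7:22727098-22727166, plus strand: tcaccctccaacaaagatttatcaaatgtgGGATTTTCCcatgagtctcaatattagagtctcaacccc
CSF2, chr5:132073657-132073725, plus strand: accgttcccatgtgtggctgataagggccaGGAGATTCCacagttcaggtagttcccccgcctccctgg

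The matches start 68 (IL32, which has another at 98) to 102 (CSF2) bases before the gene start, and a match is a description of letters, not evidence of binding. The AP-1 motif TGANTCA was found in 2 of the 11 promoters, those of CXCL8 and IL11, and in 3.75% of tested promoters, with no overlap with an NF-kB match. CXCL1 had values of 95.6 and 89.7 in control cells, 129 and 184 with siRNA 4 and 175 and 183 with siRNA 6. CXCL2 stood at 44.4 and 51.7, 102 and 134, and 88.2 and 79.4 in that order. IL11, a cytokine of the IL6 family, went from 263 and 300 to values of 523 to 577. IL32 and LIF rose least of the 12, with LIF at 0.26 with each siRNA (SE 0.04). The groups did not overlap in any of these genes, nor in 99.7% of all genes called with both siRNAs.

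Among 27 genes of the NF-kB pathway 9 rose and 4 fell, and the rises included inhibitors that NF-kB itself induces. TNFAIP3, a ubiquitin-editing enzyme that shuts the pathway off, had 550 and 569 in control cells, 907 and 1004 with siRNA 4 and 1265 and 1147 with siRNA 6. NFKBIA, which holds NF-kB in the cytoplasm, went from 1375 and 1394 to 1771 and 1955 with siRNA 4 and 2315 and 2251 with siRNA 6. The motif above was found in the promoters of 5 of 24 list members, NFKB1, NFKBIA and TNFAIP3, which rose, and REL and NFKBIZ, which did not pass. MAP3K14, the kinase of the noncanonical branch, went the other way, from 2446 and 2342 to values of 1609 to 1659.

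AP-1 and ERK genes also had more members up than down. Of 20 AP-1 and immediate-early genes 8 rose and 1 fell, with ATF3, a stress-induced factor, going from 180 and 200 to values of 322 to 365. FOSB was nearly silent, at 5.92 and 1.95 in control cells, 40.4 and 45.5 with siRNA 4 and 11.5 and 6.91 with siRNA 6, and its call was lost in 8 alternatives, among them a pseudocount of 5. Of 15 ERK ligands and feedback inhibitors 10 rose and 1 fell, 6 after upper quartile scaling. The ligand HBEGF stood at 842 and 795 in control cells, 1071 and 1097 with siRNA 4 and 2149 and 2304 with siRNA 6. EREG, another ligand of the EGF receptor, showed the opposite order, with 5402 and 5456, 9006 and 9968, and 5943 and 5821. Decay factors of AU-rich mRNAs, the class to which many cytokine mRNAs belong, had 6 of 11 up and 0 down, led by RC3H1 (Roquin-1) at 0.52 and 0.83 and ZC3H12A (Regnase-1) at 0.35 and 0.67 (SE 0.09 and 0.08). Antigen presentation on MHC class I had 1 of 12 up and 2 down, with NLRC5, the coactivator of these genes, at -0.61 and -0.67 (SE 0.11).

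COPII coats form the vesicles that carry new proteins from the endoplasmic reticulum to the Golgi. Of 28 coat and cargo receptor genes 22 rose and 0 fell, with a median log2 change of 0.37. The coat genes SAR1A, SAR1B, SEC23A, SEC23B, SEC24A, SEC24B, SEC24C, SEC24D, SEC13 and SEC31A all rose. TMED7, a cargo receptor, had 2739 and 2679 in control cells, 4775 and 5478 with siRNA 4 and 4752 and 4521 with siRNA 6. KDELR2, which returns escaped chaperones to the endoplasmic reticulum, went from 8052 and 8253 to values of 11873 to 12689. No overlap between groups was seen in either gene, which held for 99.7% of all genes called with both siRNAs.

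The unfolded protein response senses misfolded proteins through ATF6, ERN1 (IRE1) and EIF2AK3 (PERK). All 3 sensors rose, EIF2AK3 from 1088 and 1025 to values of 1674 to 1885, ATF6 by 0.37 and 0.51 (SE 0.04) and ERN1 by 0.52 and 0.75 (SE 0.16), the last not without siRNA 4 replicate 1. In the whole list 19 of 27 rose and 0 fell, with a median of 0.26. The mean of both siRNAs called 21 members higher and 2 lower, and the lowest mean log2 change in the list was -0.76. HSPA5, the main chaperone of the endoplasmic reticulum, went from 31320 and 31422 to 42865 and 43142 with siRNA 4 and 44847 and 44797 with siRNA 6. XBP1, the factor whose mRNA IRE1 splices in the cytoplasm, stood at 3276 and 3449, 5683 and 6154, and 4692 and 4820. The files give 1 value per gene and so do not show which form of XBP1 was present.

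The ER stress element is the letters CCAAT and CCACG held 9 bases apart, searched on either strand. It was found in 4 of 25 promoters of the unfolded protein list, against 0.153% of tested promoters. HSPA5, HSP90B1 and XBP1 carry it and rose, and CRELD2 carries it and did not pass. The COPII list held it in 0 of 24 promoters. Of the genes with a promoter sequence 18 rose in each of these lists, so the calls do not set members with the element apart. The unfolded protein list was written from known genes of that response, so its share of promoters describes the list and not the knockdown. The windows of 2 of these genes follow, with both parts of the element in capitals.
HSPA5, chr9:125241361-125241439, minus strand: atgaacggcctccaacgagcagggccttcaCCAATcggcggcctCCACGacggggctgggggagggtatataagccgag
XBP1, chr22:28800573-28800651, minus strand: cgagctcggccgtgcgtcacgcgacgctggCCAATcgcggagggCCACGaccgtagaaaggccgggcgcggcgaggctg

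Collagens, which leave the cell by this route, had 6 of 23 genes up and 4 down with a median of -0.07, and 3 up without control replicate 1. All 6 rises (P4HA2, PLOD1, PLOD2, LOX, LOXL1 and P3H1) were of enzymes that modify collagen, and the falls were of 2 such enzymes and 2 collagen chains. PLOD2, a lysyl hydroxylase, went from 7845 and 7651 to values of 10497 to 10931. The enzymes LOXL2 and PLOD3 fell by 0.36 and by 0.17 and by 0.21 and by 0.10 (SE 0.04). COL6A3 and COL7A1, chains of collagen itself, fell by 0.72 and by 0.46 and by 0.46 and by 0.51 (SE 0.05 and 0.04).

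Before a cell copies its DNA, ORC, CDC6 and CDT1 load the MCM helicase onto origins, and CDC7, CDC45 and the GINS complex fire it. Of 23 such genes 13 fell and 2 rose, with a median log2 change of -0.22. MCM7 had values of 16782 and 16610 in control cells, 10371 and 9856 with siRNA 4 and 10221 and 9933 with siRNA 6. CDC7, the kinase that triggers firing, went from 933 and 910 to 674 and 630 with siRNA 4 and 535 and 586 with siRNA 6. GINS4 stood at 496 and 489 in control cells and at 292 to 370 after knockdown. The loader subunits were uneven, since ORC1 fell by 0.25 and by 0.44 (SE 0.05), ORC2, ORC3, ORC4 and ORC5 did not pass, and ORC6 rose by 0.20 and 0.40 (SE 0.05). DBF4, the partner of CDC7, was the other rise, at 0.25 and 0.23 (SE 0.05).

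E2F factors switch these genes on at the start of S phase, and their motif was searched as TTTNGCGC on either strand. It lay in 4 of 20 promoters, those of MCM6, MCM7 and CDT1, which fell, and ORC6, which rose, and in 2.54% of tested promoters. MCM6 has 4 matches, starting 152, 148, 90 and 86 bases before the gene start, and MCM7 has 1. The windows of these 2 genes are shown with 1 match in capitals, for MCM6 the one at 152, which overlaps the one at 148 on the other strand.
MCM6, chr2:135876558-135876625, minus strand: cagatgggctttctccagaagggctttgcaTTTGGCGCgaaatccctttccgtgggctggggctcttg
MCM7, chr7:100101398-100101436, minus strand: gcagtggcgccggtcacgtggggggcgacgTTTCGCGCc

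In the list of E2F factors, G1 cyclins and CDK inhibitors 8 of 24 fell and 2 rose. E2F1 had 2455 and 2424 in control cells, 1342 and 1324 with siRNA 4 and 1244 and 1288 with siRNA 6. CCNE1, which encodes cyclin E1, the partner of CDK2 at the G1/S border, went from 478 and 454 to values of 273 to 319. E2F3 and E2F7 were the rises, at 0.44 and 0.19 and at 0.22 and 0.27 (SE 0.05 and 0.04). Deoxynucleotide supply had 6 of 14 down and 2 up, and the E2F motif lay in 0 of 12 of its promoters, 5 of them of genes that fell. RRM2, the regulated subunit of ribonucleotide reductase, stood at 14121 and 13780 in control cells, 9409 and 9325 with siRNA 4 and 8337 and 8560 with siRNA 6, while RRM2B, the p53-induced form, rose by 0.45 and 0.21 (SE 0.05).

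Lists of later cycle phases had more members up than down. Of 31 genes of the spindle checkpoint, mitotic kinases and the anaphase-promoting complex 12 rose and 4 fell, 38.7% and 12.9%. In the highest bin by control mean 41.0% of protein-coding genes rose and 13.9% fell, and the part of read level here was not tested. TTK, the kinase that starts the checkpoint, went from 1879 and 1827 to 2490 and 2517 with siRNA 4 and 2897 and 2941 with siRNA 6. ANAPC7, a subunit of the anaphase-promoting complex, went from 1992 and 1966 to values of 1191 to 1270. Cohesion genes split, with 7 of 21 up and 4 down, or 4 up without control replicate 2 or in the fit without a trend. ESCO1, which acetylates cohesin, went from 456 and 416 to values of 704 to 824, and CHTF18, a clamp loader of cohesion, from 529 and 526 to 274 to 353.

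Several further lists stood near the background. BCL2 family and caspase inhibitor genes had 4 of 18 up and 4 down, with 2 up without control replicate 2 or without siRNA 6 replicate 2. Among them PMAIP1 (NOXA), which promotes cell death, had 1199 and 1211 in control cells, 1962 and 2021 with siRNA 4 and 1513 and 1526 with siRNA 6. The clock list had 4 of 16 up and 1 down, with 2 up without control replicate 1 or without siRNA 4 replicate 2. Its repressor NR1D1 (REV-ERB alpha) stood at 107 and 97.5 in control cells and at 199 to 214 after knockdown. Of 19 listed genes with 1 exon, which need no splicing, 6 rose and 3 fell, with RHOB, a small GTPase, going from 330 and 323 to values of 508 to 599 and H1FX, a linker histone, falling by 0.61 and by 0.49 (SE 0.06). Complex I and V genes of oxidative phosphorylation had 14 of 53 up and 8 down, and the rises dropped to 6 after quantile normalization, 7 after upper quartile scaling, and 8 in the fit without a trend or without control replicate 1.

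HIF-2 drives the growth program of this tumor type. Of 28 listed genes for HIF-2 and its targets 9 fell and 5 rose, with a median of -0.14, and 14 fell after quantile normalization. EGLN3, an oxygen sensor that HIF induces, had values of 1705 and 1794 in control cells, 904 and 760 with siRNA 4 and 1073 and 1186 with siRNA 6. VEGFA, the angiogenic growth factor, went from 5226 and 5360 to values of 3861 to 4287. EPAS1, which encodes HIF-2 alpha, was at -0.39 with siRNA 4 and 0.08 with siRNA 6 and was not called with both.

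Base composition moved with the change across the whole table. Protein-coding genes were put into 5 equal bins by the GC content of a GENCODE v29 transcript matched by symbol. In the bin with the lowest GC 33.7% of 2222 genes rose and 10.1% fell, with a median log2 change of 0.09. In the bin with the highest GC 9.81% rose and 34.7% fell, with a median of -0.16, and the bins between followed in order. Both siRNAs showed it, with medians of 0.09 and 0.11 in the lowest bin and -0.13 and -0.18 in the highest. Differences between libraries of a group also moved with GC but were smaller, between -0.05 and 0.03 over the bins. Taking the GC trend out of each library, an alternative added after the data were seen, gave 2995 up and 2036 down. Of these, 2549 and 1869 had also risen or fallen as deposited.

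Intron length gave a smaller difference that overlapped with GC, ordered over the bins for falls but not for rises. Genes with the shortest mean introns rose in 17.0% and fell in 29.4% of cases, and those with the longest in 22.5% and 14.9%. Within the highest GC bin the short-intron genes fell in 38.9% and the long-intron genes in 33.3% of cases, and they rose in 7.91% and 6.25%. Within the lowest GC bin the short-intron genes, only 80, rose in 38.8% and the 580 long-intron genes in 27.8% of cases. That is the reverse of the order of the upward shares over all GC bins. These genes fell in 11.3% and 9.14% of cases. The 206 protein-coding genes with 1 exon rose in 24.8% and fell in 8.25% of cases. Across bins by exon number the upward share lay between 20.7% and 27.6%. The downward share climbed in order, from 16.4% with 1 to 5 exons to 25.5% with 18 or more. The median log2 change was 0.01 in the former bin and -0.06 in the latter. These shares describe genes, which are not replicates, and the part of library preparation in the GC gradient was not tested.

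In the other knockdowns of the series, each fitted with its own controls, the GC gradient was not the same. After DDX39A knockdown the median log2 change ran from -0.08 in the lowest GC bin to 0.06 in the highest, the opposite direction to SART1. SARNP, FIBP and TMEM259 gave medians between -0.02 and 0.02 in all bins. The difference between tables was not tested, since they were normalized apart.

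**Figure D4:**
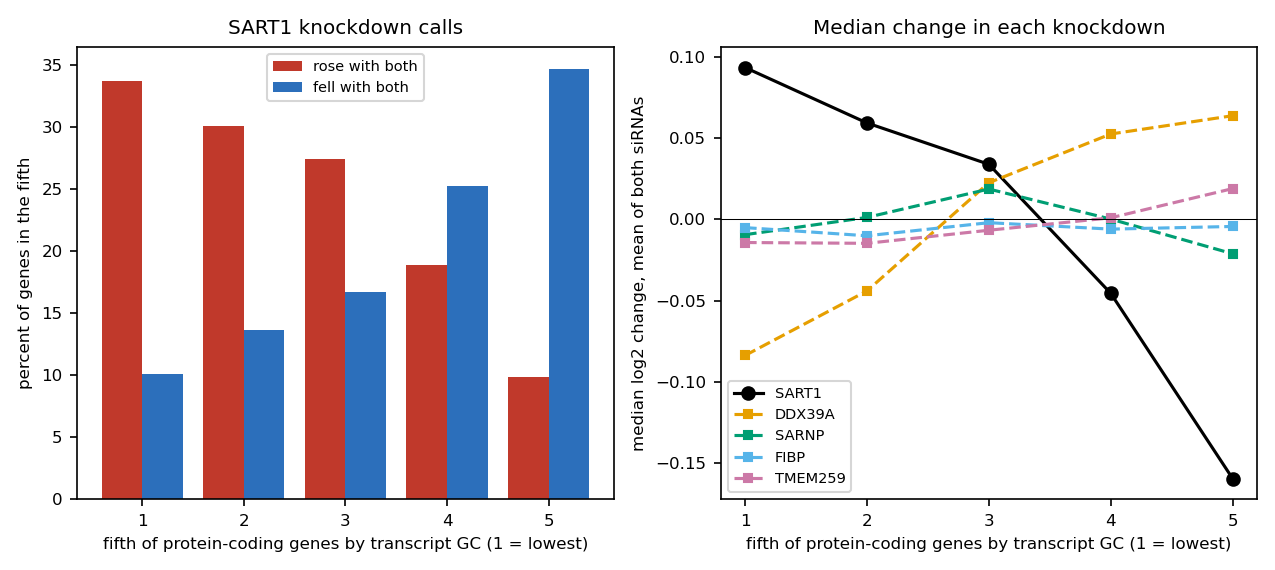
Left, percent of protein-coding genes in each of 5 bins of transcript GC that rose (red) or fell (blue) with both SART1 siRNAs, from 33.7% and 10.1% in the lowest to 9.81% and 34.7% in the highest bin. Right, median log2 change per bin for SART1 and for the other 4 knockdowns, each against its own controls.

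Reads that fall outside annotated exons are a readout that the gene values do not use. They made up 6.67% and 6.89% of all entries in control cells, 7.03% and 6.85% with siRNA 4 and 7.03% and 6.71% with siRNA 6. The ranges overlapped, and an exact two-sided permutation test of 4 against 2 libraries gave p = 0.4. Reads that matched more than 1 gene made up 1.39% and 1.38% in control cells and up to 1.42% after knockdown, higher in all 4 knockdown libraries, at p = 0.0667 in the same exact test, the smallest it can give.

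The siRNAs differed from each other beyond replicate spread in 4553 genes, 38.5% of those tested. For 286 genes, 2.42%, each siRNA was called against control but with opposite signs. Among these MMP9, a matrix protease, stood at 55.2 and 54.6 in control cells, 38.5 and 35.6 with siRNA 4 and 164 and 166 with siRNA 6, and the basement membrane collagen COL4A1 had log2 changes of -0.60 and 0.52 (SE 0.03). Genes that follow only 1 siRNA are therefore not counted as changed by the knockdown here.

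The genes named for size were also read in the other 4 knockdowns. Of the 20 largest rises 8 of 19 with a value rose with both siRNAs of DDX39A, where 8.67% of all genes rose, and 2 of 19 for SARNP (7.17%). For FIBP the count was 6 of 20 (4.68%) and for TMEM259 5 of 20 (2.56%). Called the other way were 3 after SARNP (CXCL8, IL6 and TRAF1), 1 after DDX39A (KIAA1024) and 0 after FIBP or TMEM259 knockdown. Of all genes 7.15% fell after SARNP and 6.37% after DDX39A knockdown. SEC24A and ACBD3 rose in all 4, with log2 changes of 0.72, 1.01, 0.51 and 0.53 for SEC24A and 0.38, 0.44, 0.36 and 0.34 for ACBD3 in the order DDX39A, SARNP, FIBP and TMEM259. CXCL8 was at 0.16 after DDX39A, 0.01 after FIBP and -0.05 after TMEM259 knockdown, none of them called, and fell by 1.66 (SE 0.13) after SARNP knockdown. SMNDC1, NR1D1, CSF2 and TRAF1 rose with both siRNAs in none of the 4, but not all of them were flat there. Log2 changes lay between -0.15 and 0.06 for SMNDC1 and between -0.11 and 0.52 for NR1D1. They lay between -0.65 and 0.92 for CSF2 and between -0.42 and 0.52 for TRAF1, which fell after SARNP knockdown. The mRNAs of the other targets also moved after SART1 knockdown: SARNP went from 2180 and 2188 to 3697 and 3640 with siRNA 4 and 3914 and 4003 with siRNA 6. FIBP fell by 0.41 and by 0.47 (SE 0.07), TMEM259 by 0.12 and by 0.29 (SE 0.04) and DDX39A by 0.14 and by 0.09 (SE 0.03).

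Of the 20 largest falls 4 fell after DDX39A (6.37% of all genes), 4 after SARNP (7.15%), 3 after FIBP (4.39%) and 0 after TMEM259 knockdown (2.41%). Called the other way was 1, MEGF6, after DDX39A knockdown, where 8.67% of all genes rose. LUCAT1, the largest of them, lay between -0.32 and 0.12 and was not called in any. NEAT1 fell by 0.84 after DDX39A knockdown and was at -0.78 after SARNP knockdown without passing for both siRNAs.

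The gene lists gave the following counts there, to be read against the shares of all genes. In the order DDX39A, SARNP, FIBP and TMEM259, 8.67%, 7.17%, 4.68% and 2.56% of all genes rose. The shares that fell were 6.37%, 7.15%, 4.39% and 2.41%. Of 7 U4/U6 and tri-snRNP genes 0 rose after DDX39A, 1 after SARNP, 0 after FIBP and 0 after TMEM259 knockdown, and of 21 SR genes 1, 2, 1 and 0. Of 28 COPII genes 5, 6, 12 and 9 rose in the same order, and of 15 cytokines 5, 1, 3 and 1 rose and 0, 4, 0 and 0 fell. Of 23 origin licensing genes 4, 1, 6 and 1 fell. DDX39A and SARNP share their 2 control libraries, as do FIBP and TMEM259, and no test was made between tables.

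**Figure D5:**
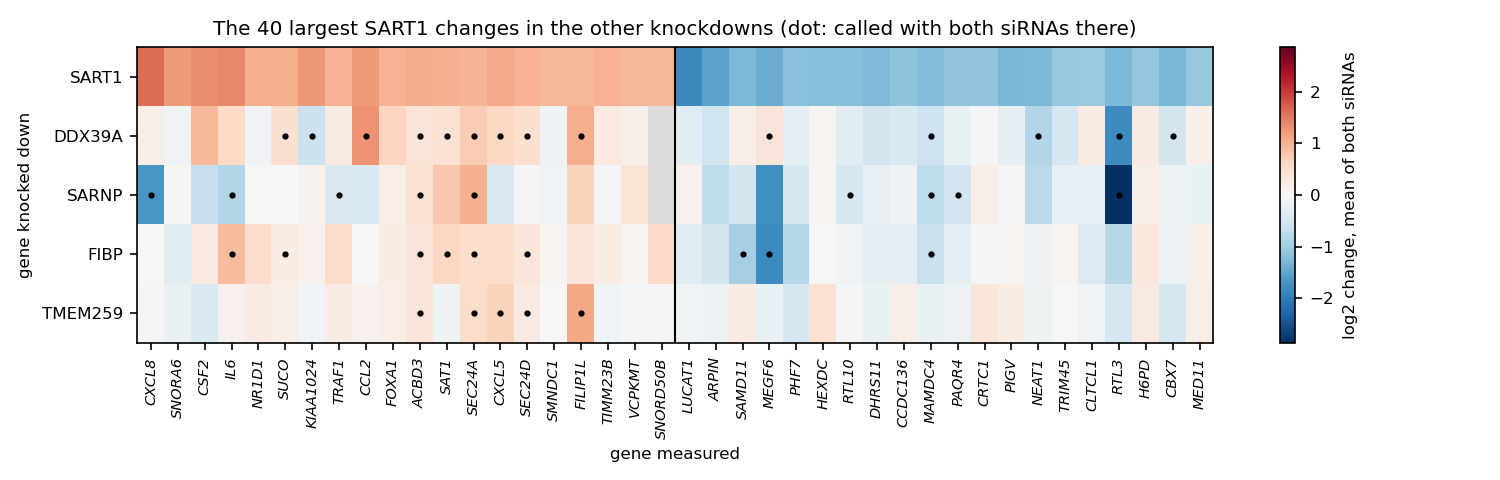
Log2 change (mean of both siRNAs, color) of the 20 genes with the largest rise and the 20 with the largest fall after SART1 knockdown (columns), in each of the 5 knockdowns (rows); dots, drawn only in the rows below SART1, mark genes called in either direction with both siRNAs of that target, and grey marks a gene without a value. SEC24A and ACBD3 carry a dot in every row below SART1, and LUCAT1 in none.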

How the data were processed

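Poly(A) RNA libraries of 786-O cells were used, 2 control and 4 SART1 knockdown libraries for the main comparison. The deposited values are a normalized signal per gene, made by the authors by dividing reads per gene by 1 size factor per library. Per the submitters' processing notes STAR, Picard, HTSeq, DESeq2 and hg19 were used; versions, annotation and the strand counted are not given in the sources used here. Within a library all values (100%, tolerance 0.0001) were whole multiples of the size-factor step, from which the depths were computed.

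Entries that belong to no gene were kept apart, and genes needed a mean of 10; the smallest was 16.4. Values were analysed as log2(value + 1) with limma 3.58.1 in R 4.3.3 (lmFit, contrasts.fit, eBayes with trend; 3 residual and 20.5 prior degrees of freedom) and Benjamini-Hochberg adjustment. Fitting was tested on simulated data. The other tables were fitted alone. The members and gene lists were chosen with earlier results of these data known. Named genes were SART1, up to 20 in each direction with the largest smaller change of both siRNAs (both passed, every knockdown library beyond the controls, mean of at least 50) and up to 5 per list and direction; the text names a selection, and genes that did not pass were named after their values were seen. Of the genes 11660 matched GENCODE 29 by symbol, used for exons and GC only. Promoter sequences are from RefSeq (GRCh38.p14). Alternatives changed the pseudocount, filter, scaling, trend, replicate block and libraries.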

Additional observations from a re-analysis of the deposited data

Results flagged for a closer look

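Of the 41 genes named for size or as the target, 13 differed between siRNA 4 and siRNA 6 in limma's test of the difference itself, with Benjamini-Hochberg adjustment over all genes; the same test called 38.5% of all tested genes. Each of the 13 moved in the same direction with both siRNAs, and what differed was the size. SART1 stood 0.31 higher on the log2 scale with siRNA 4 than with siRNA 6 (adjusted p = 1.4e-05), so the knockdown was deeper with siRNA 6.

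Among the rises, the log2 difference of siRNA 4 minus siRNA 6 was 0.62 for IL6 (adjusted p = 1.5e-05), 0.52 for KIAA1024 (5.4e-04) and 0.16 for ACBD3 (1.5e-03). It was -0.53 for CSF2 (4.7e-03), -0.45 for CCL2 (2.1e-03), -0.26 for CXCL5 (1.2e-05) and -0.20 for CXCL8 (2.0e-02). The cytokines were thus split, with IL6 higher under siRNA 4 and these 4 higher under siRNA 6.

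Among the falls, NEAT1 (0.45, adjusted p = 5.1e-08), PIGV (0.47, 2.1e-02) and CBX7 (0.59, 7.1e-03) were lower with siRNA 6. MEGF6 (-0.56, 7.8e-07) and RTL3 (-0.53, 8.9e-03) were lower with siRNA 4.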

How the results depend on the processing

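SART1 kept its direction and its call in every alternative run, at -1.79 to -1.70 when 1 library was left out in turn. Leaving out 1 library gave 2340 to 2639 genes that rose and 1876 to 2230 that fell. Quantile normalization gave 2415 and 2315, the fit without a trend 2189 and 2082, and a pseudocount of 5 gave 2710 and 2373. These totals hide an exchange of genes. Of the 2709 rises and 2362 falls, 2085 and 1864 were kept under quantile normalization and 2144 and 1934 without a trend. Filtering on a mean of 10 removed no gene. Among list counts, quantile normalization left 3 U5, 5 Sm and LSm, 4 U1, 11 SR, 6 hnRNP and 6 complex I and V genes up, 23 small nucleolar RNAs up and 14 HIF-2 genes down. Without a trend 4 U1, 5 hnRNP, 4 cohesion and 8 complex I and V genes rose. With upper quartile scaling, chosen after seeing the data, 4 U1, 6 hnRNP, 6 ERK and 7 complex I and V genes rose. A mean of at least 50 left 7 small nucleolar RNAs up. With 1 library left out in turn the rises ranged from 4 to 7 for cohesion, 3 to 5 for collagens, 2 to 4 for the BCL2 family, 2 to 4 for the clock, 8 to 13 for complex I and V, and 9 to 14 for small nucleolar RNAs. The log2 change of NELFB, an elongation factor, reversed from -0.11 to 0.043 with GC content removed from each library, also chosen after seeing the data. The cause of these shifts was not tested. Same-numbered libraries did not deviate together (correlations of -0.005, -0.008 and 0.039), which cannot settle whether they were prepared together. The main fit does not pair them, and the fit with the replicate block gave 2789 up and 2431 down. The planned count tests with edgeR and DESeq2 were not run: the values are whole multiples of a step, but no gene has a single read in any library (the lowest have 2 to 8), so the step could not be checked against a gene with 1 read, and it was used for depth only. Depth limits the genes with few reads, such as FOSB and the small nucleolar RNAs.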
